A study of Homo sapiens with 4 samples.

Results

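The MAGE cancer-testis antigens measured here are 9 X-linked genes of the type I MAGE family: MAGEA1, MAGEA3, MAGEA4, MAGEA6, MAGEA10, MAGEA12, MAGEB2, MAGEC1 and MAGEC2. They were taken by name from the gene symbols of the array design. Of the 9 genes, 8 had a probe under their own name, among 43305 gene names with a value, and these 8 were read by 11 probes with 1 spot each. Expression was profiled on 4 one-colour Agilent arrays, 1 per sample, to compare cisplatin-resistant HNSCC cells with the cells they came from. HN4 and HN30 are established HNSCC lines. Cisplatin is a platinum drug that crosslinks DNA, and rising doses of it turned these lines into HN4/DDP and HN30/DDP. The medium of both resistant lines held 20 μM of the drug, for 48 h by the sample labels. The labels give no dose or exposure for HN4 and HN30, so acquired resistance and drug exposure cannot be told apart here. HN4 was the control of HN4/DDP, and HN30 that of HN30/DDP. Since each condition had 1 array, the differences below have no replicate check, and the number of arrays limits their precision. The error given with a value is the scanner software's own error of a spot, written as scanner SD on the log2 scale.

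Type I MAGE genes fall into the A, B and C subfamilies, are normally active in testicular germ cells and placenta, and are silent in most other adult tissues. DNA methylation of their promoters keeps them silent, and many tumours, squamous carcinomas of the head and neck among them, express them again. Their proteins share the MAGE homology domain, which binds RING-type E3 ubiquitin ligases and redirects them to other substrates, and peptides cut from them are shown to T cells by HLA class I.

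The labelled cell type was checked against markers first. Of 8 squamous and epithelial markers, 7 were well above background on all 4 arrays, among them EPCAM, SFN, CDH1 and TP63. The exception was KRT6A, a keratin of stratified epithelium, at -2.97 and 0.35 in HN4 and HN4/DDP, and at 2.57 in HN30 against -5.87, not well above background, in HN30/DDP. These levels, like all others here, are log2 processed signals minus the 75th percentile of the array. KRT5, a basal keratin, had differences (resistant minus parental) of -4.05 in the HN4 pair and -1.93 in the HN30 pair, and KRT14, its partner, of 2.33 and 0.22, with another probe at 3.95 and 3.38. The differences were 1.84 and 0.55 for DSG3, 0.58 and 1.34 for CDH1, 0.15 and -0.96 for SFN, -0.14 and -0.72 for EPCAM and -0.82 and -0.06 for TP63, so these markers did not share 1 direction. Of 4 germ cell markers, 0 were well above background on all arrays: DAZL and MAEL on none, DDX4 on both resistant arrays, and SYCP3 on both parental arrays. Of 4 melanocyte genes, MLANA and TYR were not well above background on any array, and MITF and PMEL were on all 4, with differences of -0.23 and 0.11 for MITF and 1.25 and 1.90 for PMEL. Of 4 fibroblast genes, COL1A2, DCN and LUM were not on any array, and COL1A1 was on all, with differences of 1.73 (HN4/DDP) and 2.43 (HN30/DDP), the latter from 1.56 to 2.79 over the settings. PTPRC, a leukocyte gene, was well above background on all arrays with differences of -0.10 and 0.16, and CD3E on the HN30/DDP array. The part of these markers in the MAGE values was not tested.

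The probes set what can be said of each gene. Both MAGEA6 probes list the MAGEA3 transcript among their targets, so MAGEA3 and MAGEA6 cannot be told apart, and every MAGEA6 value below stands for either or both. The other 9 probes list transcripts of their own gene alone. Probes were compared with other MAGE probes on the array, not with transcripts, and ranked by the share of identical bases in their overlap. The nearest match was that of a MAGEA6 probe and the MAGEA12 probe, which overlap over 31 bases with 28 identical. Each may thus also bind some transcript of the other gene. The next nearest was that of the brighter probes of MAGEC1 and MAGEC2, with 29 identical bases over 36. The MAGEA10 probe and the other MAGEC2 probe are further apart, with 35 identical over 56. The nearest pair is shown because signal could be shared there, and the last pair as a more distant match, with the identical bases in capitals, at hg19 positions given by the array files. How much transcript of a close relative each one binds was not measured.
MAGEA6 at chrX:151870169-151870228, plus strand: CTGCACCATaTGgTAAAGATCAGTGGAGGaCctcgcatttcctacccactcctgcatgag
MAGEA12 at chrX:151899912-151899971, minus strand: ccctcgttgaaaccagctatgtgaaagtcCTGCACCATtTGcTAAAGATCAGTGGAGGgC
MAGEA10 at chrX:151303134-151303193, minus strand: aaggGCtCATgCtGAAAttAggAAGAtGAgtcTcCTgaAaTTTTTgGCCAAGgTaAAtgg
MAGEC2 at chrX:141290802-141290861, minus strand: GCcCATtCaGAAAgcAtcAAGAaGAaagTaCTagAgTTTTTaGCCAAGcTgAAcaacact

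The MAGEA genes were well above background on all 4 arrays, nearly level between HN4 and HN4/DDP, and lower in HN30/DDP than in HN30 by about the same step. MAGEA1, the first tumour antigen of the family found through patient T cells, stood at 4.44 and 4.26 in HN4 and HN4/DDP, and 4.75 and 3.46 in HN30 and HN30/DDP. Its difference was -0.17 in HN4/DDP, within the scanner SD of 0.20, and -1.30 in HN30/DDP, a signal 2.46-fold lower. HN30/DDP thus held its lowest level, and the levels of HN4 and HN4/DDP did not differ beyond their error.

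MAGEA6, read together with MAGEA3, encodes a partner of the ligase TRIM28. Its brighter probe gave 6.47 and 6.49 in HN4 and HN4/DDP, and 6.88 and 5.86 in HN30 and HN30/DDP. The difference was 0.02 in HN4/DDP and -1.03 in HN30/DDP, a signal 2.04-fold lower. Its other probe, the one printed above, gave 3.52, 3.66, 4.08 and 2.90 on the same arrays, with differences of 0.14 and -1.18. Both probes placed HN30 highest and HN30/DDP lowest.

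MAGEA12, a close relative of MAGEA3 and MAGEA6, was at 4.33 and 4.39 in HN4 and HN4/DDP, and 4.81 and 3.62 in HN30 and HN30/DDP. Its differences were 0.06 (HN4/DDP) and -1.20 (HN30/DDP). MAGEA10, a target of T cell therapies, was at 3.60, 3.61, 3.77 and 2.44 on these arrays in the same order. Its differences were 0.01 and -1.32, the latter the furthest below 0 among the 8 members in HN30/DDP. MAGEA4, which stabilises the ligase RAD18, was at 3.25 and 3.49 in HN4 and HN4/DDP, and 3.64 and 2.63 in HN30 and HN30/DDP. Its differences were 0.24 and -1.01. For each of the 5 MAGEA genes the scanner SD of a difference was 0.20, so the HN4/DDP values lay within 2 of these SDs of 0 and the HN30/DDP values beyond 2 of them. Each HN30/DDP value kept its sign under every alternative processing, over a range of -1.72 to -0.77 for MAGEA1, -1.74 to -0.88 for MAGEA10, -1.62 to -0.67 for MAGEA12, -1.43 to -0.57 for MAGEA4 and -1.45 to -0.43 for MAGEA6.

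MAGEB2, a B subfamily gene at some distance from the MAGEA cluster, on the short arm of the X chromosome, differed most in HN4. Its level was 3.57 and 0.68 in HN4 and HN4/DDP, and 4.31 and 3.43 in HN30 and HN30/DDP. HN4/DDP was 7.41-fold lower than HN4, a difference of -2.89 with a scanner SD of 0.20, and HN4/DDP was the low array among the 4. In HN30/DDP the difference was -0.88, a signal 1.84-fold lower. The HN4/DDP value ran from -2.89 to -2.81 over the alternative settings, and the HN30/DDP value from -1.30 to -0.35. The probe at chrX:30237708-30237767 of hg19 lists MAGEB2 alone.

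MAGEC2, which also pairs with TRIM28, was read in the HN30 cells and not in the HN4 cells. Its brighter probe was well above background in HN30, at -2.49, and in HN30/DDP, at -2.16. In HN4 and HN4/DDP, at -5.06 and -7.27, it was not, so no fold is given for that pair. Against the lowest signal well above background on the dim array, HN30 was at least 4.83-fold higher than HN4, and HN30/DDP at least 7.11-fold higher than HN4/DDP. These bounds hold for the main processing: with normexp background correction the log2 differences between the lines were 1.03 and 1.65, smaller than the bounds. The other MAGEC2 probe gave weaker bounds, at least 1.39-fold (HN30) and at least 1.38-fold (HN30/DDP). The MAGEC2 difference between HN30/DDP and HN30 was 0.33 with a scanner SD of 0.22. On the other probe it was -0.23, and over the alternative settings it ran from -0.09 to 0.69, so no direction is given.

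MAGEC1 was read in the HN30 cells by a probe that may share signal with MAGEC2. This probe was well above background in HN30, at -4.10, and in HN30/DDP, at -4.48, but not in HN4 or HN4/DDP. This gave at least 1.58-fold more signal in HN30 than in HN4 and at least 1.43-fold more in HN30/DDP than in HN4/DDP with the main processing, and log2 differences of 0.37 and 0.31 with normexp background correction. Its difference between HN30/DDP and HN30 was -0.37, within its scanner SD of 0.38. It is the probe that matches the brighter MAGEC2 probe over 29 of 36 bases. Both of these probes were well above background on the same 2 arrays, and the other MAGEC1 probe was not on any array. MAGEC1 transcript therefore cannot be told apart from MAGEC2 transcript in these bounds.

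**Figure D1:**
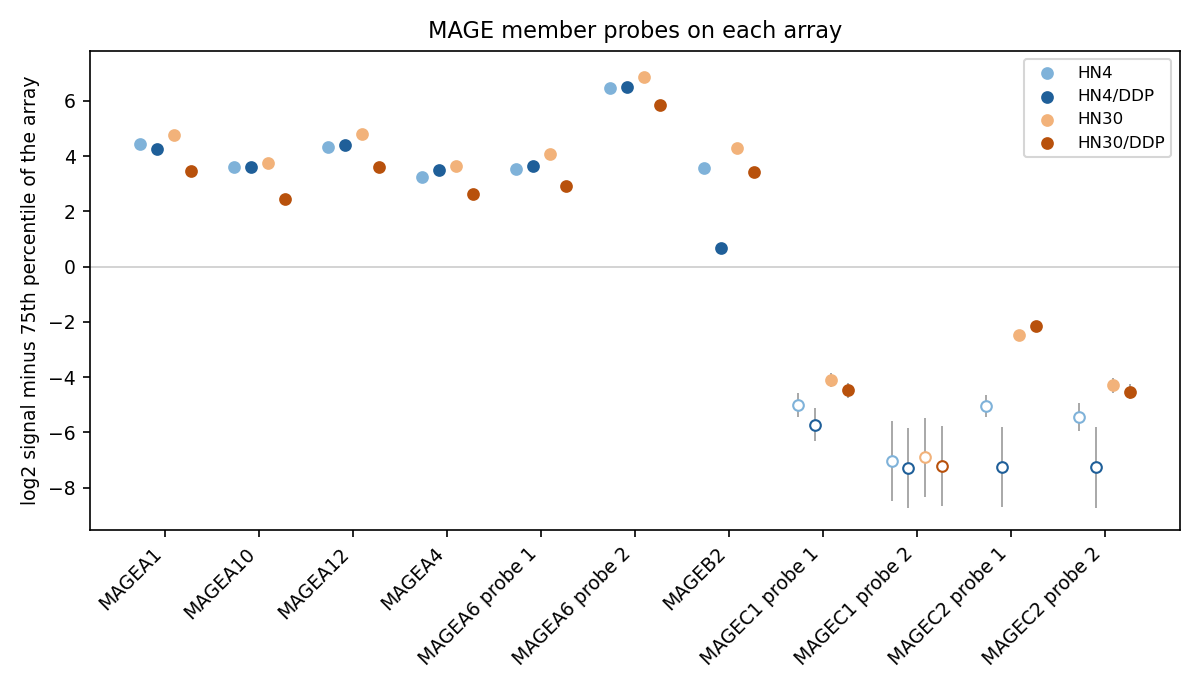
Log2 signal minus the 75th percentile of the array (vertical axis) for each of the 11 member probes (horizontal axis) on the 4 arrays, with bars for 1 scanner SD. Hollow points are not well above background. The HN30/DDP point is the lowest for every MAGEA probe, MAGEB2 is lowest in HN4/DDP at 0.68, and the MAGEC1 and MAGEC2 points in HN4 and HN4/DDP are hollow.

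In parental cells, the 6 members read on all arrays had a higher level in HN30 than in HN4. The difference, HN30 minus HN4, was 0.16 for MAGEA10, 0.32 for MAGEA1, 0.39 for MAGEA4, 0.41 for MAGEA6, 0.49 for MAGEA12 and 0.74 for MAGEB2. The first 3 lay within 2 scanner SDs of 0. In resistant cells the order of the lines turned for the MAGEA genes: HN30/DDP minus HN4/DDP was -0.63 for MAGEA6, -0.77 for MAGEA12, -0.81 for MAGEA1, -0.87 for MAGEA4 and -1.17 for MAGEA10. MAGEB2 kept its order, with HN30/DDP above HN4/DDP by 2.74. No sign of these differences between lines turned under the planned settings, although MAGEA10 came to 0.01 in parental cells with quantile normalization.

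Counted against all genes, few members differed by the wide margin used for calls. A gene counted as higher had a difference over 2 and a resistant signal well above background; a gene counted as lower had a difference under -2 and a parental signal well above background. In HN4/DDP, 0 of 8 members were called higher, against 2.24% of the 43305 genes, and 1 of 8, MAGEB2, was called lower, against 1.36%. In HN30/DDP, 0 of 8 were called higher, against 5.48%, and 0 of 8 lower, against 1.8%. With a threshold of 1, 5 of 8 members were lower in HN30/DDP, the MAGEA genes, against 8.67% of all genes. That count depends on the scaling: it was 6 with median scaling, 3 with normexp background correction, and 0 with quantile normalization, the percentile over detected probes, the deposited values or the trend over brightness removed. The median difference of the 8 members was -0.08 in HN4/DDP and -1.02 in HN30/DDP, beside -0.21 and -0.07 over all genes.

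**Figure D2:**
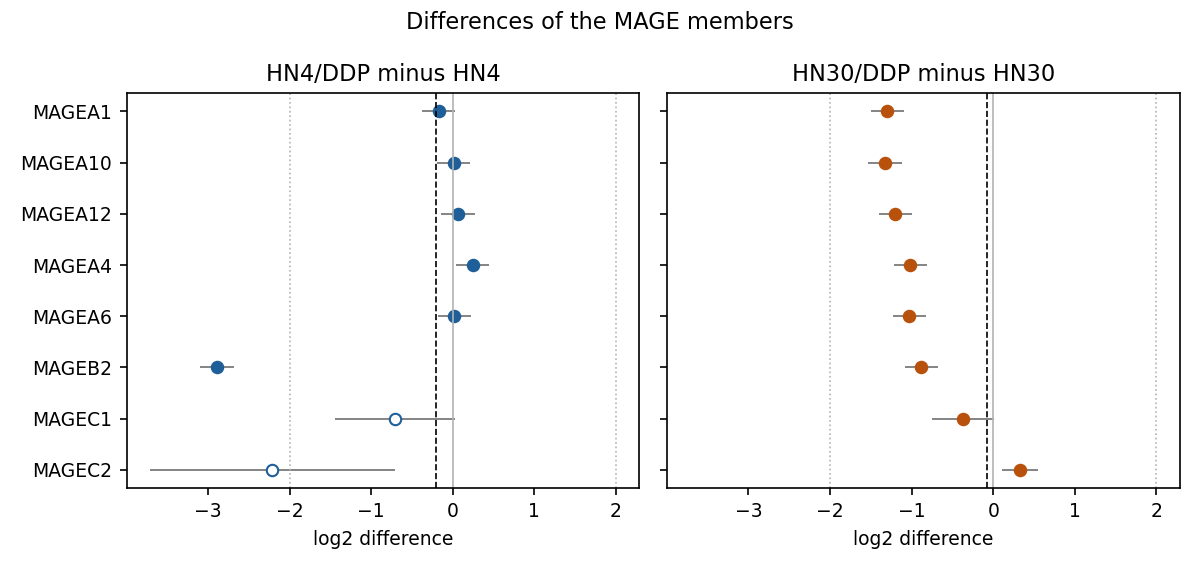
Log2 difference between the resistant and the parental array (horizontal axes) of the 8 members with a probe, HN4 on the left and HN30 on the right, with bars for 1 scanner SD. Hollow points are not well above background on either array, dotted lines mark the call threshold of 2 in each direction, and the dashed line is the median of all genes. The 5 MAGEA genes lie near 0 in HN4/DDP and from -1.32 to -1.01 in HN30/DDP, and MAGEB2 lies at -2.89 in HN4/DDP.

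Taking the lines as replicates gave the 1 test the design allows. The limma fit of resistant against parental arrays with the line as a block had 1 residual degree of freedom per gene and covered 29521 genes. It called 0 of them (0%) at an adjusted p under 0.05, and 2537 had an unadjusted p under 0.05. Of the 8 members, 0 passed, and MAGEB2 alone had an unadjusted p under 0.05, which it did not have in the fit without the line block. Its mean difference was -1.89 with an SE of 0.61, lower in 2 of 2 lines, with an adjusted p of 0.54 by limma. The other 7 members had limma adjusted p-values between 0.709 and 0.859. Whether the differences of a member in HN4 and in HN30 differ from each other was not tested.

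The HN30/DDP values have to be read beside the scaling and beside how other bright genes moved. Over the scalings tried, the median of all genes in HN30/DDP lay between -0.49 and 0.29. The members' median minus that of all genes was -0.95 with the main scaling. Median scaling gave -0.95 too by construction, since both scalings take a constant off each array. The value was -0.62 with quantile normalization and -0.65 with the deposited log2 values. With dim signals raised to the lowest signal well above background it was -0.70. Bright genes as a whole were lower in HN30/DDP. Among 3317 other genes well above background on all arrays, whose mean level in the HN30 pair lay between those of the dimmest and the brightest of the 6 bright members, the median difference was -0.52 and the quartiles were -1.04 and 0.03. Of them, 1033 (31.1%) lay below -0.88, the highest value of the 6 members. In the HN4 pair the like median was -0.09. With the trend over brightness removed, a step added after the data were seen, the members' median in HN30/DDP was -0.62. Minus the median of all genes in that setting it was -0.59.

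**Figure D3:**
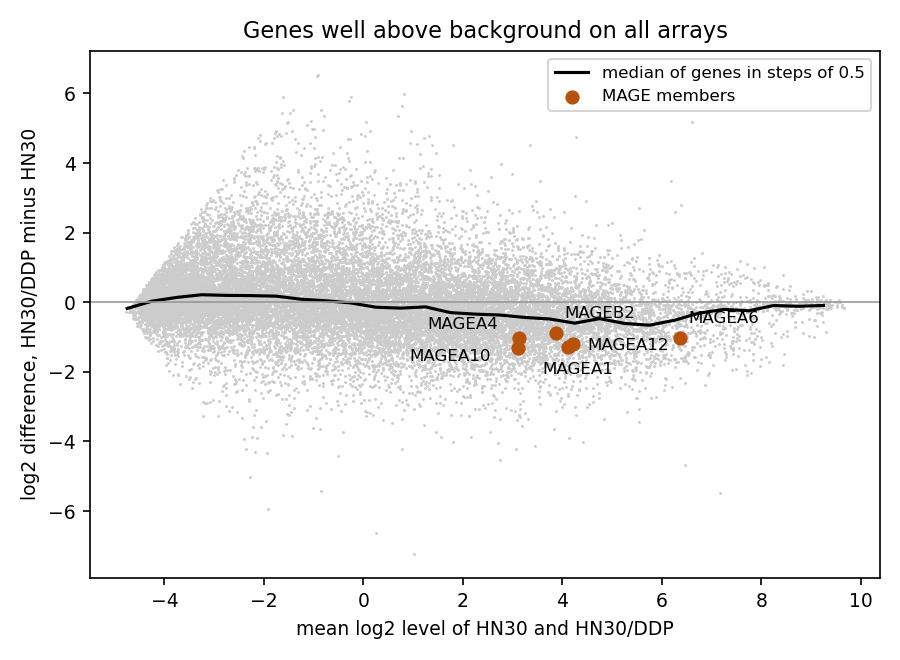
Difference between HN30/DDP and HN30 (vertical axis, log2) against the mean level of the pair (horizontal axis, log2 minus the 75th percentile) for genes well above background on all 4 arrays. Grey points are genes, the line is their median in steps of level, and the 6 marked members lie below the line, between -1.32 and -0.88.

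The MAGEA probes lie between bases 151092474 and 152481769 of the X chromosome in hg19, and their neighbours did not share 1 direction. Of 25 array genes there, 20 were other than members, and 12 of these, outside the MAGE lists, were well above background on all arrays. Their median difference was -0.28 in HN4/DDP and 0.13 in HN30/DDP, with 5 of 12 below 0 in HN30/DDP and a range of -1.68 to 2.15. The value of 2.15 belongs to a probe named for MAGEA10-MAGEA5, a transcript that reads through from MAGEA10, whose own probe gave -1.32. CSAG1, a cancer-testis gene close to MAGEA12, differed by 0.24 in HN30/DDP, a value that ran from -0.18 to 0.90 over the settings, where MAGEA12 differed by -1.20. CETN2, a centrin of the centrosome, differed by -1.68 and NSDHL, an enzyme of cholesterol synthesis, by -0.85. These neighbours were named after their values were seen.

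Since the MAGEA genes gave like differences in HN30/DDP, the members' promoters are shown. The promoter windows used here, from RefSeq for GRCh38.p14, take 250 bases before and 50 after each annotated start. They held 7 of the 9 members in 12 windows. MAGEA1 and MAGEA10 had no window among them, so their promoters were not read. The windows of MAGEA3 and MAGEA6 were identical over all 300 bases. GGATGTG, searched on both strands, was found in 12 of 12 member windows and in 4.29% of all 35116 windows. GACTTGCGC, which does not overlap it, was found in 9 of 12, those of MAGEA3, MAGEA4, MAGEA6 and MAGEA12, and in 0.159% of all windows. Of 16 other genes named MAGEA, MAGEB or MAGEC, 8 held the former and 2 the latter. The letters were chosen after the windows were seen, so these counts describe shared sequence and mark no binding site. CG pairs numbered 9 to 21 per member window, against a median of 14 over all windows. The stretches around the motif follow, with both motifs in capitals. For genes with several starts the window with the motif furthest before its start is given.
MAGEA3 at chrX:152698700-152698739, plus strand: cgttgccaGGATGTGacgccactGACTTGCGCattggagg
MAGEA6 at chrX:152769744-152769783, minus strand: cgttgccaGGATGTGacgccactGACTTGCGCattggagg
MAGEA12 at chrX:152733737-152733776, plus strand: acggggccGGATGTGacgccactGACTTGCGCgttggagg
MAGEA4 at chrX:151918237-151918276, plus strand: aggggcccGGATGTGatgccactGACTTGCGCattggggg
MAGEB2 at chrX:30215492-30215531, plus strand: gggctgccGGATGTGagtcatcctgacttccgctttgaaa
MAGEC1 at chrX:141903842-141903881, plus strand: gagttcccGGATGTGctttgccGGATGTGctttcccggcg
MAGEC2 at chrX:142205266-142205304, minus strand: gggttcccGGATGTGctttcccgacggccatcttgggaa

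GGATGTG began 86 bases before the start in MAGEA3 and MAGEA6, 63 in MAGEB2, 44 in MAGEC1 and 6 in MAGEC2. MAGEB2, MAGEC1 and MAGEC2 held GGATGTG without GACTTGCGC.

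**Figure D4:**
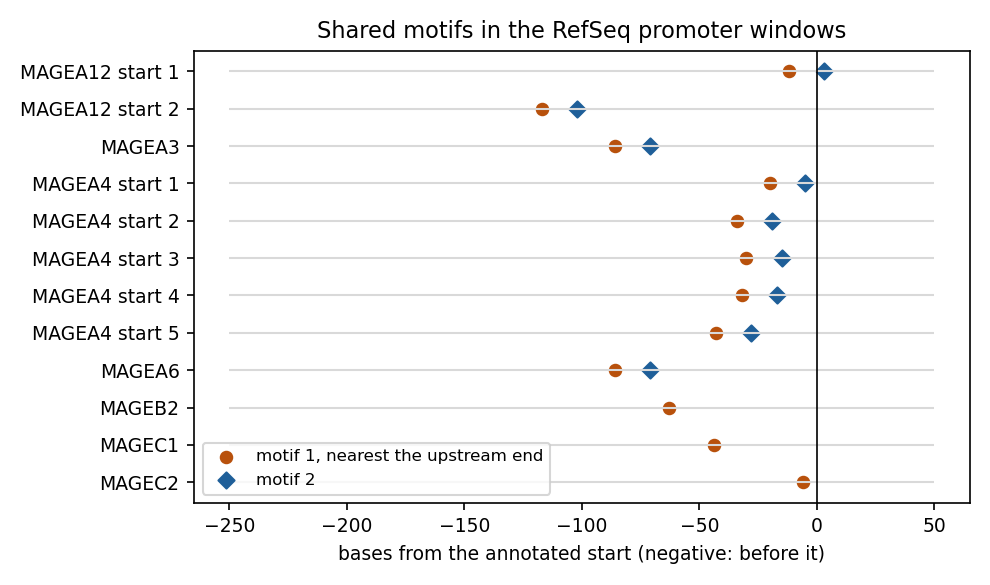
Position of GGATGTG (motif 1) and GACTTGCGC (motif 2) in the 12 RefSeq promoter windows of 7 members, as bases from the annotated start (horizontal axis), with 1 line per window. The MAGEA windows carry both motifs, and the MAGEB2, MAGEC1 and MAGEC2 windows carry motif 1.

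Relatives of the members were read the same way. Of 17 other type I MAGE genes, 14 had a probe, 2 were well above background on all arrays and 7 on none. MAGEA2B, whose probe also lists MAGEA2, differed by 0.18 in HN4/DDP and -1.02 in HN30/DDP, values close to those of its neighbour MAGEA6, and MAGEA8 by -0.65 and -1.75; both were named after their values were seen. In HN4/DDP 1 gene of the list, MAGEA9, whose probe also lists MAGEA9B, was called lower and 0 higher. It was dim in HN4/DDP, which left a bound of at least 1.78-fold, and its difference came to -0.64 at the least over the settings. In HN30/DDP 1 gene, MAGEB17, was called higher, at least 2.29-fold over a dim HN30 value and with a difference as low as 0.50 over the settings, and 0 lower. The list's median was -0.24 in HN4/DDP and -0.22 in HN30/DDP. The type II MAGE genes are expressed in many normal tissues, and 10 of 12 had a probe. Of these, 0 were called in HN30/DDP and 1 was called in HN4/DDP, MAGED1, an adaptor in apoptosis signalling, which was lower by -6.21, a value that came to -4.35 at the least over the settings. It stood at 1.74 and -4.46 in HN4 and HN4/DDP, and 2.18 and 3.08 in HN30 and HN30/DDP. The medians of that list were -0.27 and 0.13.

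**Figure D5:**
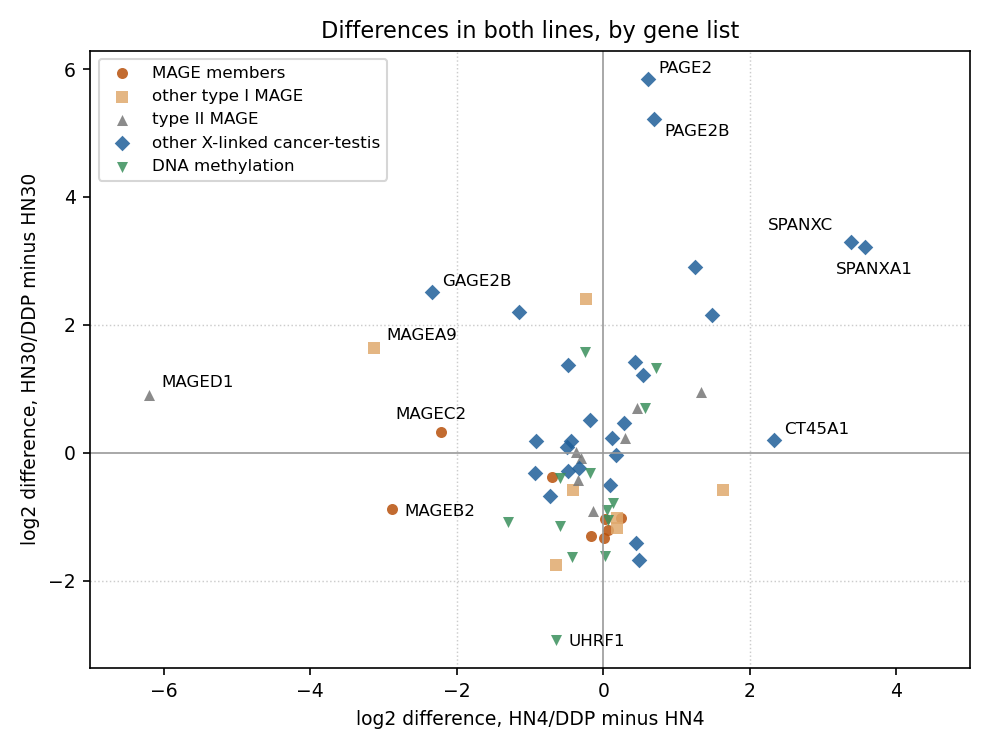
Log2 difference in HN4 (horizontal axis) against that in HN30 (vertical axis) for the genes of 5 lists well above background on at least 1 array, with dotted lines at the call threshold of 2. The MAGEA members lie near 0 across and below -1 down, MAGEB2 lies at -2.89 across, and MAGEC2 rests on dim signals in HN4 and HN4/DDP.

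Regulators of MAGE silencing came next. Of 14 DNA methylation genes, 0 were called in HN4/DDP, and in HN30/DDP 1 was called lower, UHRF1, which guides DNMT1 to newly copied DNA, and 0 higher. UHRF1 differed by -0.64 in HN4/DDP and -2.92 in HN30/DDP. DNMT1, the maintenance methyltransferase, differed by -0.43 and -1.62. The de novo enzymes gave 0.72 and 1.32 for DNMT3A and 0.13 and -0.78 for DNMT3B, but their probes went opposite ways in HN30/DDP, from -1.87 to 1.32 and from -0.78 to 0.55. Of the demethylating enzymes, TET1 differed by -0.25 and 1.58, TET2 by -0.59 and -0.39 and TET3 by -0.18 and -0.31. Another TET3 probe gave -1.915 in HN4/DDP. Another TET2 probe gave 2.71 in HN30/DDP, and TET3 ran from -0.77 to 0.53 there over the settings. The list's medians were -0.22 and -0.83. Those of 12 histone repression genes were -0.31 and -0.77, and those of 9 ETS and SP1 factors -0.10 and -0.28, with 0 called in either list. Most of these genes were bright: 13 of the 14 and all 12 were well above background on all arrays. Beside them, the 3317 other genes in the level range of the 6 bright members had a median of -0.52 in HN30/DDP. Methylation itself was not measured, and its part in the MAGE values was not tested.

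Among 14 genes whose products bind MAGE proteins or are their substrates, 0 were called in HN30/DDP and 0 were called lower in HN4/DDP. LNX1, a RING ligase, differed by 2.01 in HN4/DDP, just past the call threshold, and by 1.80 in HN30/DDP. Over the settings these values ran from 1.43 to 2.07 and from 0.98 to 2.16, so the call does not hold throughout. TRIM28, the ligase partner of MAGEA3, MAGEA6 and MAGEC2, differed by -0.13 and -1.09. RAD18, the partner of MAGEA4, differed by 0.21 and -1.69, beside 0.24 and -1.01 for MAGEA4 itself. PRKAA1, the AMPK subunit that MAGEA3 and MAGEA6 target with TRIM28, differed by -0.35 and 0.13, the latter running from -0.29 to 0.49 over the settings. Of 12 class I presentation genes, 0 were called in either line. B2M, the light chain of class I molecules, gave -0.43 and 0.34, the latter running from -0.08 to 0.78 over the settings. The medians were 0.23 and -0.64 for the partners and -0.40 and 0.01 for class I presentation. Other genes in the level range of the 6 bright members had a median of -0.52 in HN30/DDP.

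Likeness was read from the levels of each gene centred over the 4 arrays. For the 6 members well above background on all arrays, the Euclidean distance from their own mean was 0.39 for MAGEA6, 0.40 for MAGEA1, 0.43 for MAGEA12, 0.59 for MAGEA4, 0.69 for MAGEA10 and 2.39 for MAGEB2, which thus lay furthest off. That mean was 0.19 and -0.27 in HN4 and HN4/DDP, and 0.60 and -0.52 in HN30 and HN30/DDP. Its value in HN4/DDP rests on MAGEB2, at -2.315. The MAGEA genes lay between 0.04 and 0.26 there, so no single member has the profile of this mean. Of the genes outside the MAGE lists, the 5 nearest to this mean were RPIA (0.06), GNPAT (0.06), TXLNG (0.07), NUP54 (0.07) and NPAT (0.07), a choice of members added after the data were seen. The planned mean of all 8 members also takes in MAGEC1 and MAGEC2 values of HN4 and HN4/DDP that were not well above background. The 5 genes nearest to that mean were PTPRG (0.15), NUPL2, now NUP42 (0.16), SLC39A6 (0.16), TAF4B (0.17) and FGFBP2 (0.18), and 0 of 5 were shared between the 2 choices, so the nearest genes depend on which members are taken.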

How the data were processed

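The authors deposited the scanner output of 4 arrays (processed intensity, its error, mean and local background intensity of each spot), made with Agilent Feature Extraction 10.7.1.1, which subtracts background and corrects spatial trends within an array. Per the file headers, other columns are flags of 0 or 1 for outlier spots, saturation and signal well above background; 0 of 60901 non-control spots were saturated, and all arrays shared 1 slide and 1 scan. The authors also deposited log2 values, with the same median of 4.65 in each array and identical quantiles; the steps before that are not given in the sources used here, and their differences correlated across 58183 probes with those computed here at r = 0.996 (HN4) and 0.958 (HN30).

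Log2 of the processed intensity minus the array's 75th percentile was used (signals of 494, 496, 444 and 480 in HN4, HN4/DDP, HN30 and HN30/DDP). Outlier spots were left out, spots of a probe averaged, and a gene read by its probe with the highest mean. Names come from the array, updated through RefSeq accessions (GRCh38.p14, names only). The fit used limma 3.58.1 in R 4.3.3 (lmFit, eBayes with trend, Benjamini-Hochberg) and was tested on simulated data; the remaining steps ran in Python 3.11.15 with pandas 2.3.3 and numpy 2.4.6. A dim value has the lowest signal well above background on its array as its floor. The members and lists were chosen with earlier results of these data known. Named genes are the members, 15 regulators, partners and related antigens, up to 4 called genes of each list and line, and the 5 nearest profiles; others were chosen later. Some genes that this rule names are not reported here. CTAG1B, among the 15, had no probe under its own name and is read with CTAG1A, and CTCFL was not well above background on any array.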

Additional observations from a re-analysis of the deposited data

Results flagged for a closer look

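The 8 members with a probe gave 0 cases in which the HN4 and HN30 differences lay beyond 2 scanner SDs of 0 in opposite directions. Among the other genes named, 9 did so; the gap between the lines was not tested for any of them, since each condition had 1 array. The gap is the HN30 difference minus the HN4 difference. MAGED1 differed by -6.21 in HN4/DDP and 0.90 in HN30/DDP, a gap of 7.11, though the former came to -4.35 at the least over the settings. MAGEA9 was at least 1.78-fold lower in HN4/DDP, on a dim signal, and gave 1.64 in HN30/DDP; the computed gap of 4.77 uses the dim signal and is no measured size. GAGE2B gave -2.34 and 2.51, a gap of 4.85. STK31 gave -4.16, which came to -2.56 at the least, and 0.60, a gap of 4.75. LIPI was dim in both HN4/DDP and HN30, which leaves at least 1.64-fold lower in HN4/DDP and at least 1.73-fold higher in HN30/DDP; its computed gap of 3.06 rests on both dim signals. CT45A5 gave 0.49 and -1.67, a gap of -2.16, and CT83 gave 0.45 and -1.40, a gap of -1.85. KRT6A gave 3.32 in HN4/DDP and was at least 183-fold lower in HN30/DDP, on a dim signal, which the computed gap of -11.77 uses; the bound is that of the main processing, and the difference came to -5.39 at the least over the settings. B2M gave -0.43 and 0.34, a gap of 0.77; its HN30/DDP value changed sign over the settings.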

How the results depend on the processing

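The call of MAGEB2 as lower in HN4/DDP held under the 12 alternatives tried, 11 planned and 1 added after the data were seen, and so did the counts of 0 members higher in either line. The count of members lower in HN30/DDP was 0 under each alternative but a threshold of 1, which gave 5 with the main scaling. The median member difference in HN30/DDP, -1.02 as reported, moved to -1.44 with median scaling, -0.64 with quantile normalization, -0.66 with the percentile over probes detected on all arrays, -0.68 with the deposited log2 values and -0.62 with the trend over brightness removed, the added alternative. The first 4 change the array scaling by construction. In HN4/DDP that median ran from -0.08 to 0.03. Of 160 member differences under alternatives, 119 moved by less than 1 scanner SD and 41 by more, with 0 reversals of a called value. The limma fit called 0 genes and 0 members under all 4 of its alternatives: all genes, no trend, normexp background and no line block. Unadjusted p-values under 0.05 then numbered 2921, 2186, 2163 and 3261. No paired analysis was possible by replicate number because every condition carries replicate 1 alone; arrays were paired by line only, as the block of the limma fit. Signal over background limits MAGEC1 and MAGEC2 to bounds in HN4 and HN4/DDP.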

Other observations

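Other cancer-testis genes on the X chromosome differed from gene to gene. Of 61 listed, 38 had a probe and 12 of these were not well above background on any array. In HN4/DDP 3 were called higher and 1 lower, and in HN30/DDP 8 were called higher and 0 lower, beside 2.24% and 1.36% of all genes in HN4/DDP and 5.48% and 1.8% in HN30/DDP. SPANXA1 and SPANXC, whose probes list each other and further SPANX genes, differed by 3.57 and 3.38 in HN4/DDP and by 3.22 and 3.30 in HN30/DDP. They encode small nuclear proteins of sperm. PAGE2 was at least 18.2-fold higher in HN30/DDP and PAGE2B at least 30.5-fold, both against dim HN30 signals with the main processing; over the settings the differences came to 2.50 and 2.97 at the least, and another PAGE2B probe gave 3.84. The PAGE2B probe also lists PAGE2. CT45A1, whose probe also lists CT45A3 and CT45A7, differed by 2.33 in HN4/DDP and 0.20 in HN30/DDP, but over the settings these ran from 1.14 to 2.44 and from -0.23 to 0.57, so its call does not hold throughout. The CTAG1A probe, which also lists CTAG1B, differed by 1.48 in HN4/DDP and was at least 1.96-fold higher in HN30/DDP over a dim HN30 signal; over the settings the differences ran from 0.53 to 1.61 and from 0.38 to 2.52. GAGE2B, whose probe lists a transcript of GAGE12F, was lower by -2.34 in HN4/DDP and higher by 2.51 in HN30/DDP. CT45A5, whose probe also lists CT45A6 and CT45A7, and CT83, both named after their values were seen, gave 0.49 and 0.45 in HN4/DDP and -1.67 and -1.40 in HN30/DDP, beside -0.17 and -1.30 for MAGEA1. No difference between the lists was tested. The list's median was -0.01 in HN4/DDP and 0.19 in HN30/DDP.

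Of 24 autosomal germline and cancer-testis genes, 23 had a probe, 0 were called higher and 2 lower in HN4/DDP, and 1 was called higher and 0 lower in HN30/DDP. STK31, a kinase-like protein of germ cells, was lower in HN4/DDP by -4.16, with another probe at -3.47 and a value of -2.56 at the least over the settings, and LIPI, a lipase, at least 1.64-fold against a dim signal, with a difference as small as -0.42 over the settings. SOHLH2, a germ cell transcription factor whose probe also lists a read-through transcript, was higher in HN30/DDP by 2.30, but ran from 1.33 to 2.67 over the settings, past the call threshold in some alone. PRAME, a repressor of retinoic acid signalling, differed by 0.97 and 0.89. The list's median was 0.14 in HN4/DDP and 0.04 in HN30/DDP.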
